A study of Ovis aries and Mus musculus with 20 samples.

Results

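The regions described here are the 257 topologically associating domains (TADs) of mouse inguinal white adipose tissue (iWAT) that spanned at least 1.5 Mb from start to end, out of 2979 TADs in the mouse map. They were chosen by length alone and were set beside the 1546 TADs of 400 to 840 kb. The long TADs made up 8.63% of all TADs and covered 713 Mb, which was 31.0% of the length in TADs. The data were in situ Hi-C libraries of iWAT, a subcutaneous fat depot, from adult female Kunming mice labelled as 32 weeks old. There were 2 libraries, each made from a pool of untreated mice (pool 1 and pool 2), and the labels gave no contrast between them. The study set mouse fat beside that of other mammals, and of these only the TAD lists of 3 visceral depots of sheep were counted here. Before lysis the floating layer that held the adipocytes was taken, so the nuclei came from the cells of that layer, and no expression in these mice was analysed here to check the tissue against its markers.

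Hi-C records which stretches of DNA lie close together in the nucleus. A TAD is a stretch of a chromosome whose loci contact each other more than they contact loci outside it. On a larger scale chromatin separates into an A compartment, which is open, rich in genes and transcribed, and a B compartment, which is compact, poor in genes and often at the nuclear lamina. The A-B index, given for each 20-kb bin, is the score for contact with A chromatin minus that for B chromatin, so that it is above 0 in A and below 0 in B. It has no unit, its values ran from -13.2 to 11 over all bins, and a TAD was given the mean index of its bins in each pool. The authors called TADs on the merged map of both pools, so the list of TADs has no replicate, while the index was given for each pool. They set TAD boundaries by an insulation score, which reflects the contacts that pass across a bin. Contacts inside the long TADs were not examined here. The number of contacts behind a bin is not known from the files used here, and the error given is the spread between the pools.

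The promoter sides of 5 genes are given as examples of the sequence in long TADs. Each sequence is the 250 bases that end just before the start of the gene's canonical transcript, 5′ to 3′ on the strand of the gene, from GRCm39, with every CpG in capitals. Lrrc4c (chr2:97297134-97297383, plus strand), Epha7 (chr4:28812784-28813033, plus strand) and Cntn5 (chr9:10904781-10905030, minus strand) were each the sole protein-coding gene starting in a long TAD. Erf (chr7:24950187-24950436, minus strand) and Kif2b (chr11:91468385-91468634, minus strand) had the highest and the lowest index, by the mean of the pools, of all genes in long TADs. Lrrc4c encodes a synaptic ligand of netrin-G1, Epha7 an ephrin receptor, Cntn5 a contactin of neuronal surfaces, Erf a transcriptional repressor of the ETS family and Kif2b a kinesin.
Lrrc4c: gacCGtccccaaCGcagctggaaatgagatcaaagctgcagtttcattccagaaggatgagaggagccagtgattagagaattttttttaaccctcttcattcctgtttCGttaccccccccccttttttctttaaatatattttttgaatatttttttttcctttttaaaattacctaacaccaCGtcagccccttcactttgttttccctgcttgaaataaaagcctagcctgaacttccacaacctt
Epha7: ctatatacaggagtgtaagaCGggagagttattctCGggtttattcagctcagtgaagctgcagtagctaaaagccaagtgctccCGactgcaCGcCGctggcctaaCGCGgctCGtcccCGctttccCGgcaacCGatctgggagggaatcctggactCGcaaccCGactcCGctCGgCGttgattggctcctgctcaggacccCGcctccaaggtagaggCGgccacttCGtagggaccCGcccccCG
Cntn5: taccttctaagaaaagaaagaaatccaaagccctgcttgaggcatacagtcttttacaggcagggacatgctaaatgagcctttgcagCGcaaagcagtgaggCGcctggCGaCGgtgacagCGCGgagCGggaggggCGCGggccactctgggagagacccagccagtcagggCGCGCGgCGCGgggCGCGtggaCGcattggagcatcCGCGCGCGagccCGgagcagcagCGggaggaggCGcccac
Erf: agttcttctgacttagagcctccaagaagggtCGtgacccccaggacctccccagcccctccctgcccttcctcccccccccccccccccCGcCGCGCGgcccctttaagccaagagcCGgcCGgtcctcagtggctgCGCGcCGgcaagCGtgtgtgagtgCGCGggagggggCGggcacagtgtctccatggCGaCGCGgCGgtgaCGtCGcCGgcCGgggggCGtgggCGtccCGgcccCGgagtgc
Kif2b: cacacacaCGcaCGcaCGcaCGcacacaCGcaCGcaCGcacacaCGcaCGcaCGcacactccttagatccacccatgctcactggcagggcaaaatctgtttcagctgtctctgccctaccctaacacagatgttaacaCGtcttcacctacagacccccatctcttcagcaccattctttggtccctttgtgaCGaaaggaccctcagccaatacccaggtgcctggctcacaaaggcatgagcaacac

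The letters CG occurred 4 times before Lrrc4c, 21 times before Epha7, 24 times before Cntn5, 26 times before Erf and 12 times before Kif2b, where most of them lay in a simple repeat. CpG, read the same on both strands, occurred at least once in 92.7% of the 20621 such windows of autosomal protein-coding genes, whose median was 8. Windows of the 2449 genes in long TADs held a median of 3 CpG, against 9 in TADs of 400 to 840 kb. The 685 windows of olfactory and vomeronasal receptors in long TADs held a median of 1, and the other 1764 genes of long TADs held a median of 7. Of these other genes, the 953 in long TADs in B held a median of 4, against 9 for the other genes of TADs of 400 to 840 kb. The 68 genes that were alone in their long TAD held a median of 11, and 38 of them (55.9%) had 10 or more, a share of 44.5% over all windows. Epha7 and Cntn5 thus carried a CpG-rich promoter within B chromatin, at an index of -1.80 and -1.72 (pools 1 and 2) and of -5.21 and -4.74, respectively.

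Long TADs lay mostly in the B compartment. Their mean index was -3.12 in pool 1 and -2.97 in pool 2, against 1.48 and 1.18 for TADs of 400 to 840 kb. Over long TADs the index ran from -8.80 through a median of -3.88 to 7.32 in pool 1, and TADs of 400 to 840 kb ran from -7.01 through 1.89 to 9.0. The classes overlapped over most of this range, but in pool 1 the upper quartile of the long TADs, -2.10, was below the lower quartile of the shorter ones, -0.572. The difference of the class means was -4.60 in pool 1 and -4.15 in pool 2, or -4.38 ± 0.320 (SD, n = 2 pools). It was negative on 19 of 19 autosomes in both pools, from -6.76 to -3.72 in pool 1 and from -6.17 to -3.26 in pool 2. An exact sign-flip test over the 2 pools cannot fall below a two-sided p of 0.5, and no test was run.

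In all, 225 of the 257 long TADs (87.5%) had a mean index below 0 in both pools, 27 were above 0 in both and 5 changed sign between the pools. The share below 0 in both pools was 29.7% (459 of 1546) for TADs of 400 to 840 kb and 36.6% over all TADs. The share grew with length, from 75 of 101 TADs (74.3%) of 1.5 to under 2 Mb and 72 of 77 (93.5%) of 2 to under 3 Mb to 60 of 61 (98.4%) of 3 to under 5 Mb and 18 of 18 of at least 5 Mb. Around the length limit the mean index did not step evenly: the 4 TADs of exactly 1.5 Mb had -0.954 and -1.15 in pools 1 and 2, and the 8 TADs of 1.48 Mb had 1.09 and 0.757. The latter ranged from the Etaa1 TAD of chromosome 11, at -4.76 and -4.53, to a TAD of chromosome 7 with 66 genes, at 7.18 and 6.66.

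**Figure D1:**
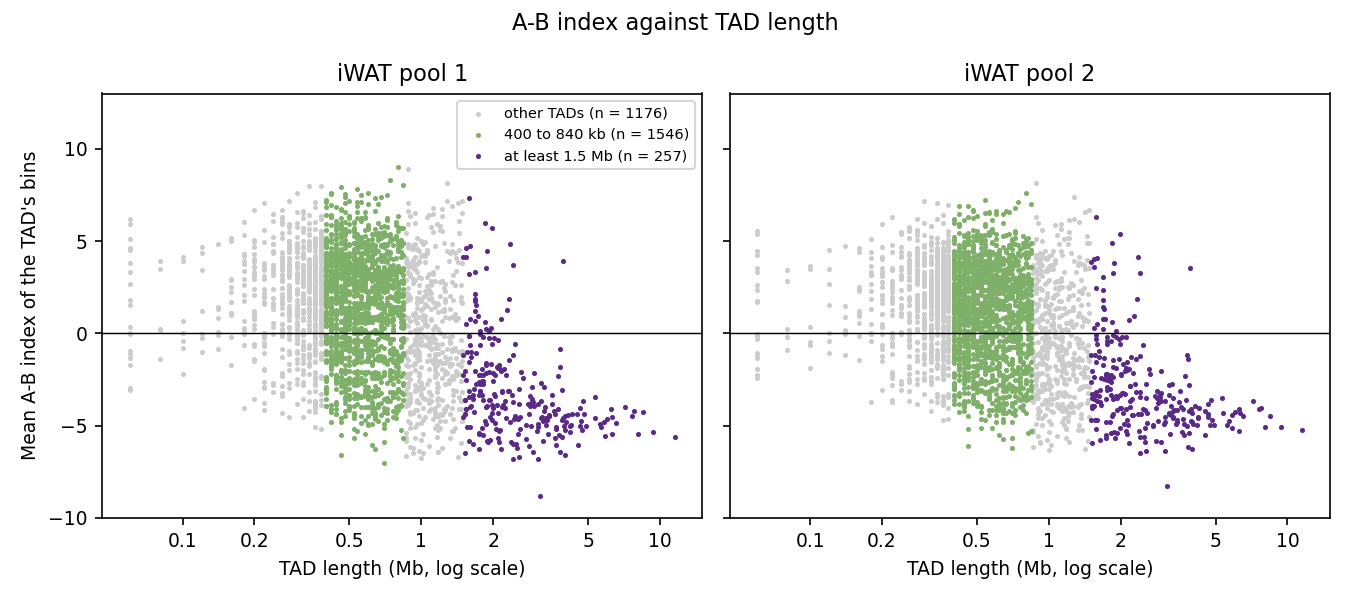
Mean A-B index of each TAD (y axis, no unit) against its length (x axis, Mb, log scale) in pool 1 (left) and pool 2 (right), with 1 point for each of the 2979 TADs. TADs of at least 1.5 Mb (purple, n = 257) lie mostly below 0 and those of 400 to 840 kb (green, n = 1546) mostly above it, and no TAD of at least 5 Mb lies above 0.

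The pools gave nearly the same order of long TADs. Pearson's r between them was 0.996 over the 257 TADs, a description only, since the TADs share both libraries. Pool 2 lay nearer 0 at 186 of the 225 TADs in B and at 25 of the 27 in A. Over all bins the index had an SD of 3.77 in pool 1 and 3.42 in pool 2, so the narrower spread of pool 2 was not particular to long TADs. In units of the SD of each chromosome the difference of the class means was -1.24 in pool 1 and in pool 2.

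The longest TAD, chr15:12940001-24500000 of GRCm39, spanned 11.56 Mb with an index of -5.61 in pool 1 and -5.26 in pool 2. The protein-coding genes that started in it were Cdh6, Cdh9, Cdh10, Cdh12 and Cdh18, all classical cadherins of cell adhesion, and Acot10, an acyl-CoA thioesterase. The bin of Cdh18 had -6.43 and -5.98, that of Cdh12 -5.67 and -5.48, that of Cdh9 -5.28 and -5.14, and that of Cdh6 -5.06 and -4.08. The index thus stayed far below 0 at each of these genes, and 77.3% of the TAD was gene desert, a stretch of at least 500 kb between neighbouring protein-coding genes. The longest stretch of desert in it was 3554 kb.

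The next longest TADs also held adhesion genes. TAD chr14:87800001-97160000 spanned 9.36 Mb with the protocadherins Pcdh20 (-3.31 and -3.23) and Pcdh9 (-4.49 and -4.62), the actin-binding Klhl1 (-5.93 and -5.27) and Ccdc202 (-5.70 and -5.58). Directly before it, across 1 bin, lay chr14:80000001-87780000 of 7.78 Mb, and the pair spanned 17.16 Mb with 9 genes. In that neighbour Tdrd3, a Tudor domain protein, had 3.69 and 2.17, and the protocadherin Pcdh8 had 0.856 and 1.06, both above 0 and both close to an end of the TAD. Pcdh17, another protocadherin, had -2.65 and -2.68 there, and Olfm4, an olfactomedin glycoprotein, had -1.40 and -2.41. TAD chr8:96720001-104800000 of 8.08 Mb held the cadherins Cdh8 (-6.42 and -6.26) and Cdh11 (-3.88 and -3.63) and no other protein-coding gene start.

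Of the genes named in the 10 longest TADs, those with an index above 0 in both pools lay in chr14:80000001-87780000 and chr15:44740001-52340000. TAD chr5:77660001-86140000 of 8.48 Mb held Adgrl3, a latrophilin, at -1.52 and -0.864, the ephrin receptor gene Epha5 at -5.26 and -5.11, Tecrl at -5.05 and -5.21 and 1700031L13Rik at -3.36 and -4.24. TAD chr15:44740001-52340000 of 7.60 Mb held the very long Csmd3 at -5.73 and -5.42 and the potassium channel modifier Kcnv1 at -5.76 and -6.32. In the same TAD Trps1, a GATA-type repressor, had 1.49 and 2.18, and Eif3h, a translation initiation factor subunit, had 1.94 and 2.39. Trps1 lay in a stretch of 320 kb with an index above 0 in both pools, set 1520 kb from the nearest end of the TAD. Utp23 and Rad21, also in that TAD, started in other stretches above 0 in both pools.

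The remaining 4 of the 10 longest TADs held 2 to 4 genes each. Pcdh10 (-2.49 and -2.34) and Pabpc4l (-2.63 and -3.17) were the only ones in chr3:41760001-48900000, of which 99.1% was desert. In chr1:98340001-104860000 were Cntnap5b, a neurexin relative (-4.97 and -3.45), Cdh20 (-3.64 and -4.65) and Slco6d1 (-4.39 and -3.64). In chr8:48600001-54920000 were the teneurin gene Tenm3 (-4.08 and -4.02), the DNA glycosylase gene Neil3 (-1.67 and -1.23), the lysosomal gene Aga (-0.687 and -1.29) and the lymphatic growth factor gene Vegfc (-0.104 and -0.271), whose index was near 0. In chr4:74420001-80700000 Ptprd, a receptor tyrosine phosphatase gene of 2271 kb, had -6.41 and -5.90 and Dmac1 had -1.55 and -2.33.

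**Figure D2:**
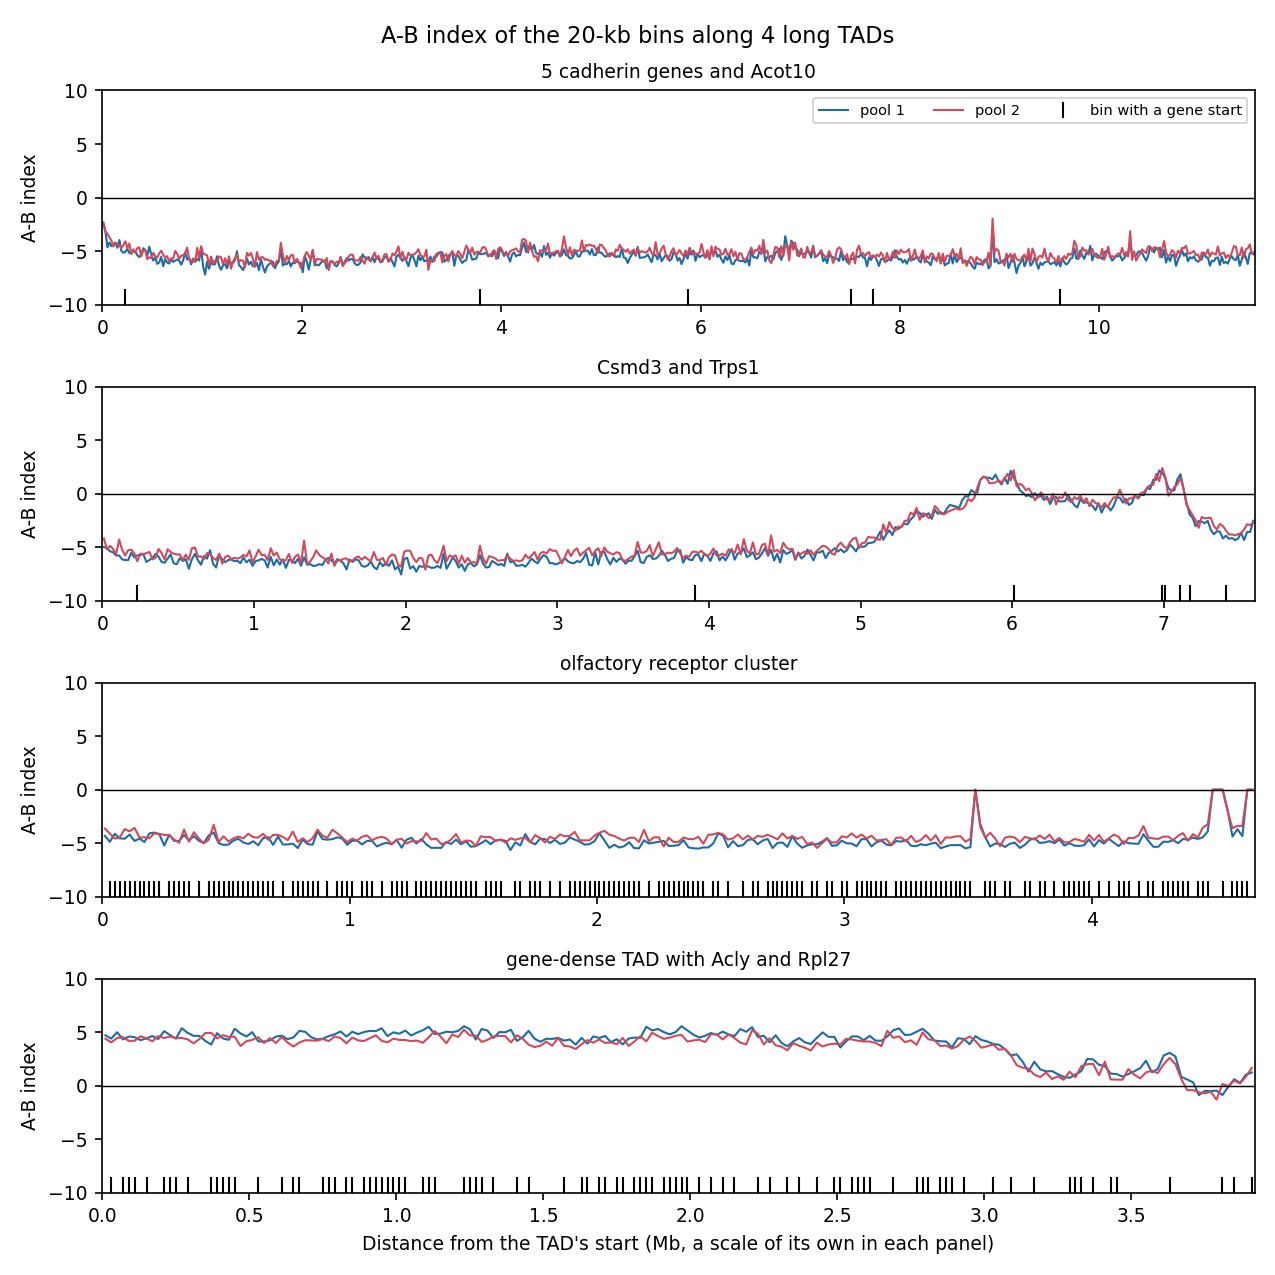
A-B index of each 20-kb bin (y axis, no unit) along 4 long TADs by distance from the start of the TAD (x axis, Mb), with pool 1 in blue, pool 2 in red and black ticks at bins with a gene start. From the top, the cadherin TAD of 11.56 Mb stays below 0, the Csmd3 TAD rises above 0 at Trps1, the olfactory receptor cluster of 4.66 Mb stays near -5 despite its many genes apart from a few bins at 0, and the TAD with Acly lies above 0 over most of its length.

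Within long B TADs the index fell from the ends towards the middle. In the 225 long TADs in B it averaged -2.64 in pool 1 and -2.57 in pool 2 within 100 kb of an end, -3.68 and -3.49 at 200 to 400 kb, and -4.99 and -4.73 beyond 1500 kb. Bins far from an end come only from the longest TADs, so the same was taken within each TAD. In 68 of the 78 TADs in B of at least 3 Mb, the mean beyond 1 Mb from the ends was below the mean of the outer 200 kb in both pools. These outer parts averaged -3.60 and -3.44, and the inner parts -4.95 and -4.66. The 459 TADs of 400 to 840 kb in B were at -1.82 and -1.84 within 100 kb of an end and at -2.60 and -2.49 at 200 to 400 kb. At equal distance from an end, bins of long B TADs were therefore lower in both pools than bins of shorter B TADs.

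**Figure D3:**
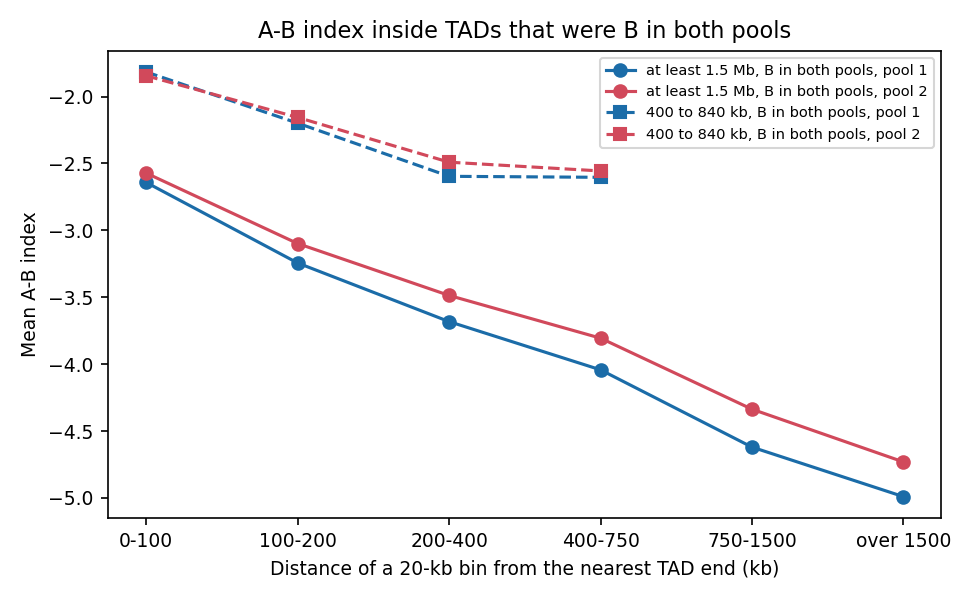
Mean A-B index of 20-kb bins (y axis, no unit) by their distance from the nearest TAD end (x axis, kb) for TADs in B in both pools, of at least 1.5 Mb (solid lines) and of 400 to 840 kb (dashed lines), with pool 1 in blue and pool 2 in red. The long TADs fall from -2.64 to -4.99 in pool 1 and lie below the shorter ones at each shared distance.

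The chromatin outside long B TADs was often B as well. In the 100 kb beyond an end, the mean index of both pools was above 0 at 160 of 450 ends (35.6%), and at 310 of 918 ends (33.8%) for B TADs of 400 to 840 kb. Of the 225 long B TADs, 37 had A chromatin on both sides, 86 on a single side and 102 on neither. Some long TADs lay next to each other, in 21 runs that held 44 of the 257. How many would do so by their number alone was not computed, so this is not read as a trait of long TADs. The runs of 3 were chr3:20640001-27140000, with 4 genes, and chr7:102140001-107440000, with 213 genes, most of them olfactory receptors.

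Long TADs held few genes. Of the 19358 protein-coding genes that started in a TAD, 2449 (12.7%) started in a long TAD, although these covered 31.0% of the length. That was 3.43 genes per Mb, against 10.8 in TADs of 400 to 840 kb and 8.42 over all TADs. The median long TAD had 0.932 genes per Mb and the median shorter TAD 7.75. Fewer than 2 genes per Mb started in 185 of 257 long TADs (72.0%) and in 190 of 1546 shorter TADs (12.3%). This limit depends on length, since 103 of the shorter TADs had a single gene start and yet at least 2 genes per Mb. The 27 long TADs in A held 16.0 genes per Mb, the 225 in B 2.49 and the 5 that changed sign between the pools 0.743. The 459 TADs of 400 to 840 kb in B held 6.02, more than the long TADs in B. Among TADs in A the long ones were denser than those of 400 to 840 kb. The part of the compartment in the low density of long TADs was not tested. Without the olfactory and vomeronasal receptors long TADs held 2.47 genes per Mb and TADs of 400 to 840 kb 10.5.

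No protein-coding gene started in 10 long TADs (3.89%), and the share was 4.08% (63 of 1546) for shorter TADs and 4.83% over all TADs. A longer TAD has more room for a gene start, and the median length was 2.22 Mb for long TADs and 0.54 Mb for shorter ones. The like shares are therefore not read as a likeness of the classes. All 10 long TADs without a gene start were in B in both pools. In 4 of them no protein-coding gene overlapped at all: chr5:54380001-57820000 of 3.44 Mb (-4.44 and -4.79), chr13:78380001-80960000 of 2.58 Mb (-4.52 and -4.33), chr17:75940001-78440000 of 2.50 Mb (-5.98 and -5.59) and chr16:70440001-72040000 of 1.60 Mb (-5.06 and -4.71). The other 6 were partly or wholly spanned by genes that started outside, such as chr7:90160001-91680000 (-3.64 and -3.30), which lay entirely in the body of Dlg2, a scaffold gene of the synapse. Dpp10, encoding a subunit of A-type potassium channels, reached into chr1:121560001-124040000, and Fstl5, encoding a secreted follistatin relative, into chr3:76000001-78840000.

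A sole gene started in 68 long TADs, 62 of them in B. The longest of these TADs held Lrrc4c, at chr2:94300001-100320000 (6.02 Mb, -4.62 and -4.28). The next held Epha7, at chr4:26600001-31960000 (5.36 Mb, -4.61 and -4.30). Grik2, a kainate receptor gene, was alone in chr10:45900001-50420000 (4.52 Mb, -6.07 and -5.51), and the teneurin gene Tenm2 in chr11:36500001-40500000 (4.00 Mb, -6.58 and -6.29). The bin of the gene start was below 0 in both pools for 55 of the 68 sole genes and above 0 in both for 11. Over all genes in long TADs these shares were 57.2% and 40.3%. In 9 of the 68 the gene covered more than 50% of its TAD, among them Rbms3 (94.3%), an RNA-binding protein gene, Fhit (82.1%), a hydrolase gene at a fragile site, and Rbfox1 (68.4%), a splicing regulator gene.

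The genes of long TADs included many short and some very long ones. Their median length was 10.8 kb, below the 23 kb of genes in TADs of 400 to 840 kb, and yet 92 of them (3.76%) were over 500 kb, against 61 (0.646%). The 2449 genes of long TADs include 685 olfactory and vomeronasal receptors, and the median length without these was not computed. Of the 56 genes over 1 Mb that started in any TAD, 40 started in a long one. The longest were Ptprd, at 2271 kb, and Cntnap2, a neurexin relative of 2245 kb at an index of -4.89 and -5.09. Of the 40 genes 35 had an index below 0 in both pools, against 57.2% of all genes in long TADs.

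**Figure D4:**
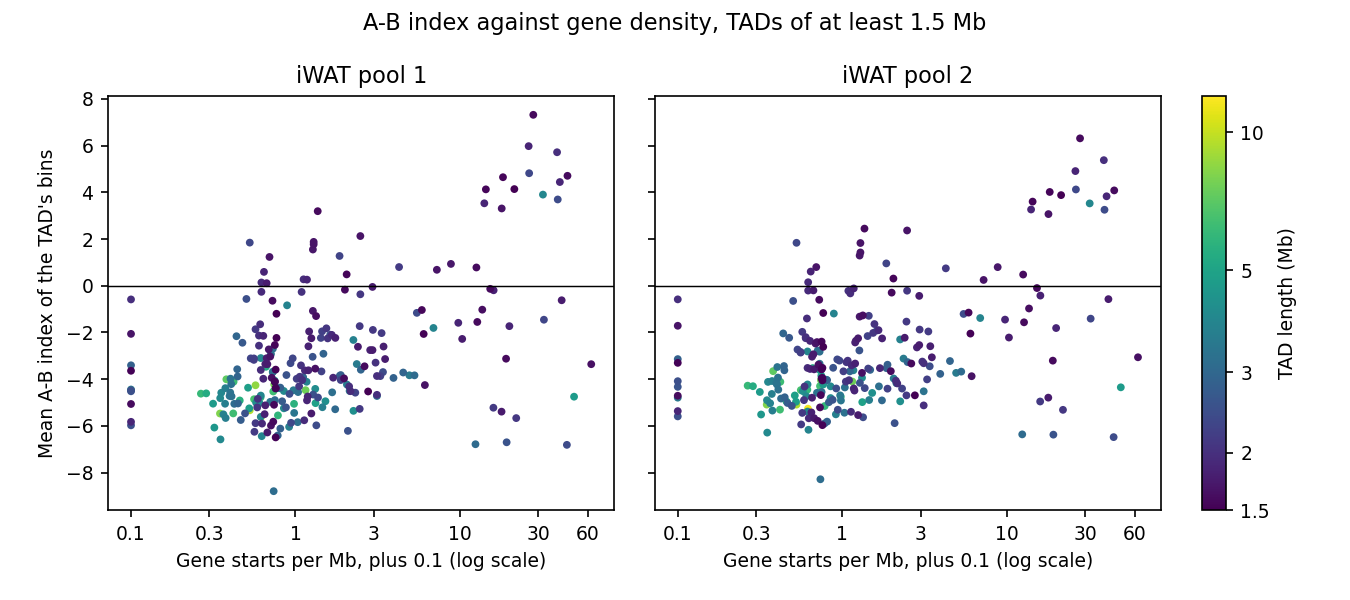
Mean A-B index of the 257 TADs of at least 1.5 Mb (y axis, no unit) against protein-coding gene starts per Mb plus 0.1 (x axis, log scale) in pool 1 (left) and pool 2 (right), coloured by TAD length in Mb. Most points lie below 0 at under 2 genes per Mb, and the 31 TADs with over 10 genes per Mb lie both above 0 and far below it.

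Gene deserts filled most of the long TADs. On the autosomes 594 deserts of at least 500 kb spanned 696 Mb. They covered 62.4% of the length of long TADs, 9.26% of that of TADs of 400 to 840 kb and 29.5% of that of all TADs. Of all desert length, 63.9% lay in long TADs. At least 1 whole desert lay inside 119 of 257 long TADs (46.3%), against 18 of 1546 shorter ones (1.16%) and 6.45% of all TADs, but a whole desert hardly fits into a TAD of 400 to 840 kb. In TADs of at least 5 Mb deserts covered 82.7% of the length. The long desert of 4668 kb between the genes of chr8:48600001-54920000 was the longest of the autosomes. Where lncRNA genes were counted as genes too, deserts covered 16.9% of long TADs and 0.629% of the shorter ones, so most of these deserts were free of protein-coding genes but not of annotated lncRNA genes.

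The 31 long TADs with over 10 genes per Mb divided into 14 in A and 17 in B. The highest index was that of chr2:31280001-32860000, with 44 genes, among them the tyrosine kinase gene Abl1 and the urea cycle gene Ass1, at 7.32 in pool 1 and 6.31 in pool 2. TAD chr7:23620001-25600000, with 77 genes, was at 5.72 and 5.38. The 5 highest genes of all long TADs lay in it: Erf (9.75 and 8.63), Cic, a repressor (9.48 and 8.58), and Gsk3a, a kinase of glycogen metabolism, Dedd2 and Zfp526, which shared a bin at 8.92 and 8.37. Many of the gene-dense TADs in B were clusters of tandem genes. TAD chr2:85520001-90180000, with 230 genes, most of them olfactory receptors, had -4.75 and -4.35, and chr9:37640001-40060000, with 108, had -6.81 and -6.48. The vomeronasal receptor cluster chr17:18220001-21300000, with 38, had -6.79 and -6.36. Gene density alone therefore did not order the index: Pearson's r between them over the 257 long TADs was 0.436 in pool 1 and 0.435 in pool 2, while with GC content it was 0.755 in both, values that describe TADs of shared libraries and shared base composition.

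Not every gene-poor TAD was B. In A in both pools were 9 of the 185 long TADs with fewer than 2 genes per Mb (4.86%), a share of 10.5% over all long TADs. Among TADs of 400 to 840 kb with fewer than 2 genes per Mb it was 59 of 190 (31.1%). A long TAD in A with 2 to 10 genes per Mb was chr7:135400001-137080000, with 4 genes, among them Ebf3, encoding an early B-cell factor, at 2.13 and 2.37 for the TAD. The lowest long TAD, chr11:90620001-93760000 of 3.14 Mb, was at -8.80 and -8.29 and held Kif2b (-9.06 and -8.73) and Car10, a carbonic anhydrase relative without activity (-9.37 and -8.26), the genes of lowest index by the mean of the pools in long TADs. The next lowest were Gm7233 (-8.73 and -7.54), Esp34, an exocrine gland peptide gene (-7.64 and -8.36), and the olfactory receptor gene Or8c9 (-8.09 and -7.89).

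Long B TADs were mostly but not uniformly B inside. Bins above 0 in both pools made up 2.92% of the bins of long B TADs, a smaller share than the 7.93% in B TADs of 400 to 840 kb. Stretches of such bins numbered 193 in 97 of the 225 long B TADs and spanned 18.3 Mb, and the other 128 TADs had none. Of the 193 stretches 83 were a single bin, 57 reached an end of the TAD and 84 held a gene start. The 51 stretches of at least 100 kb held a gene start in 39 cases. The longest, chr11:72000001-73100000, spanned 1100 kb with 30 gene starts at 2.15 and 1.86. Some held a sole gene that encodes a regulator of development. Of these, Sox4 in 580 kb (1.56 and 1.47), Cited2 in 440 kb (1.05 and 0.756) and Bcl11b in 220 kb (1.53 and 1.51) reached an end of the TAD. Zeb2, a repressor of epithelial genes, lay with Gtdc1 in a stretch of 460 kb (1.07 and 0.632), set 1140 kb from the nearest end, and Nfia, a factor of the nuclear factor I family, in 740 kb with 3 other genes (1.96 and 1.69). These stretches were named after their values were seen. Over all long B TADs, bins with a gene start averaged -3.33 and -3.18, and bins without averaged -4.23 and -3.99.

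Gene families differed in how many of their members started in long TADs, where 12.7% of all protein-coding genes in TADs did. Of all 2449 genes in long TADs, 57.2% had an index below 0 in both pools and 40.3% above it in both. The lists were chosen with earlier results of these data known. Of 1098 olfactory receptor genes in TADs, 634 (57.7%) started in 11 long TADs, with a median index of -5.03 in pool 1 and -4.58 in pool 2 there, and 605 of the 634 were below 0 in both pools. The first of these genes in the largest cluster were Or5g9 (-4.86 and -4.09), Or9g10 (-4.12 and -4.56), and Or9g3 and Or9g19, which share a bin (-4.54 and -4.46). Olfactory receptors detect odorants in the nose, and each sensory neuron uses a single receptor gene. Of 328 vomeronasal receptor genes, which detect pheromones, 51 (15.5%) started in 3 long TADs, with a median index of -6.00 and -5.73, and examples were Vmn2r124 (-7.31 and -6.57) and Vmn2r94 (-7.50 and -7.14). Members of these families lie in tandem and share TADs and bins, so their counts are not independent.

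Among genes of the nervous system, 37 of 65 neuronal adhesion and synapse genes (56.9%) started in long TADs, spread over 35 of them, and 35 of the 37 were below 0 in both pools. Their median was -4.89 and -4.02, and Adgrl3, Csmd3, Cntnap5b and Tenm3, described above, were in the longest of these TADs. Glutamate and GABA receptor subunits did so for 17 of 37 (45.9%), among them Grik2 (-6.29 and -5.45), Grin3a (-4.89 and -4.54) and Grm8 (-1.92 and -1.96), with 15 below 0 in both pools. Of 67 axon guidance genes 22 (32.8%) started in long TADs, with 9 below and 12 above 0 in both pools. Epha5 and Epha7 were below 0, as was the ephrin gene Efna5 (-1.21 and -1.30), and Efnb2 was above it (0.960 and 1.32). Of 102 cadherins and protocadherins 25 (24.5%) did, 20 of them below 0 in both pools, and 65 started in TADs of 400 to 840 kb. Voltage-gated potassium channel genes followed with 5 of 28 (17.9%), of which Kcna4 (-4.55 and -3.78) and Kcnd2 (-4.82 and -4.91) were below 0 and Kcnh4 (4.28 and 4.55) was above it.

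The listed transcription factors of development had 25 of 128 genes (19.5%) in long TADs, with 11 below and 12 above 0 in both pools. Foxp2 (-2.81 and -2.79) and Bcl11a (-3.95 and -3.77) were below 0, and Sox4 (2.03 and 1.44) and Zeb2 (1.01 and 0.409) above it. Hox genes, which pattern the body axis, had 1 of 35 (2.86%) in a long TAD, Hoxb13 (2.24 and 3.06). Genes used in every cell had shares below the 12.7% of all genes, but on few genes. That 12.7% includes the receptor clusters, of which 57.7% of olfactory and 15.5% of vomeronasal receptor genes started in long TADs. The share without them is therefore lower, but it was not computed. Whether these lists lie below it is not known, so their shares are not read as a depletion. Cytosolic ribosomal protein genes had 6 of 71 (8.45%), of which 5 were above 0 in both pools, as in Rps19 (8.36 and 7.21), and Rpl10l was below 0 (-5.30 and -4.14). Respiratory chain subunits had 5 of 78 (6.41%), of which Atp5pd had 6.53 and 5.00 and Cox7c had -0.512 and -2.32. No test of the lists against each other was made.

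Of 51 genes of adipocytes and lipid metabolism in TADs, 4 (7.84%) started in a long TAD. Of all 54 autosomal members 53 were above 0 in both pools, against 75.5% of all protein-coding genes in TADs. Acly, which makes acetyl-CoA for fatty acid synthesis, had 4.73 and 4.60 in chr11:100220001-104140000, a TAD with 125 genes at 3.90 and 3.53. Lipe, the hormone-sensitive lipase gene, had 7.77 and 8.14 in the TAD of Erf. Ebf3 had 4.89 and 4.23. The exception was Ppargc1a, the coactivator of mitochondrial biogenesis and thermogenesis, at -1.02 and -1.69. It was the sole gene to start in the B TAD chr5:50500001-52240000 of 1.74 Mb, whose index was -3.36 and -3.58.

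**Figure D5:**
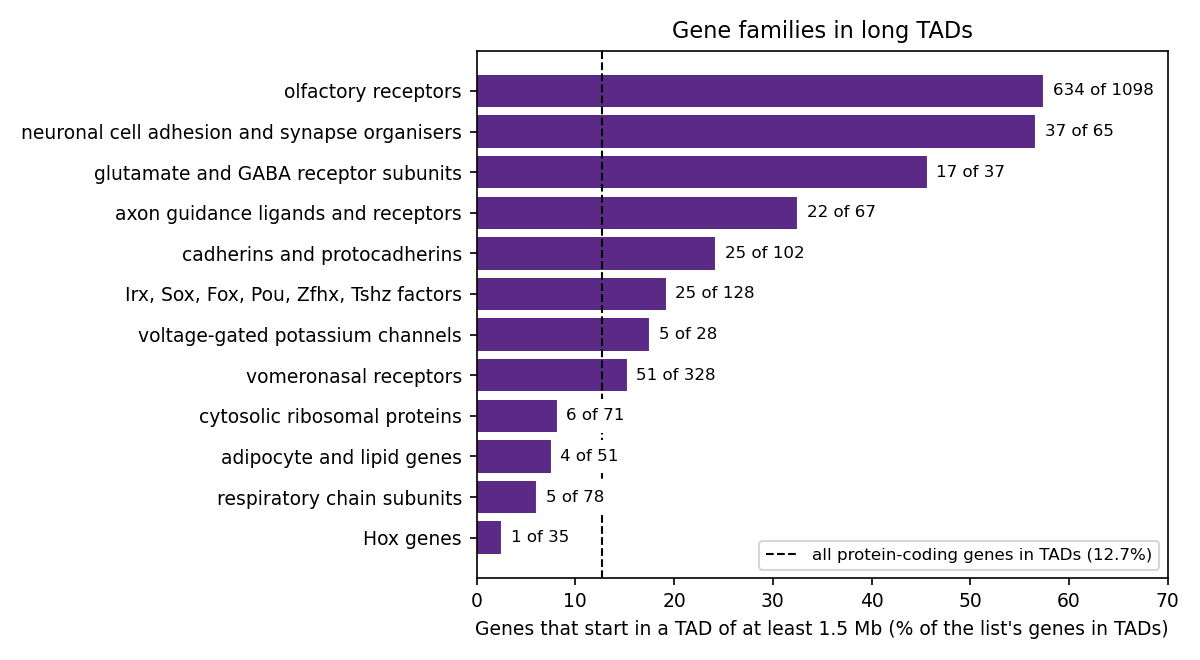
Percent of the genes of each list in TADs that start in a TAD of at least 1.5 Mb (x axis), with the counts beside each bar and a dashed line at the 12.7% of all protein-coding genes in TADs. Olfactory receptors, neuronal adhesion genes and receptor subunits lie highest. Ribosomal, adipocyte, respiratory chain and Hox genes, with 1 to 6 genes each, lie below the line, which includes the receptor clusters.

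Long TADs were low in GC. Their mean GC content was 39.6%, against 43.6% for TADs of 400 to 840 kb, and they held 6.51 CpG per kb against 9.92. Sites of MboI, the enzyme used to cut the chromatin (GATC), were as dense in long TADs, at 2.52 per kb against 2.47. Long TADs were also lower in both pools among TADs of like GC content. From 38 to under 40% GC, 85 long TADs averaged -3.83 and -3.65 and 166 shorter ones -2.11 and -2.09. At 42% GC and above, a wide range in which the classes may still differ in GC, 44 long TADs averaged 0.466 and 0.312 and 1042 shorter ones 2.67 and 2.27. The same held for TADs with fewer than 2 genes per Mb, at -3.75 and -3.55 for 185 long TADs and -1.07 and -1.08 for 190 shorter ones. These were not alike either: the long ones held 0.686 genes per Mb against 1.07 and had a mean GC content of 38.9% against 41.8%. The part of GC content or gene density in the difference was not tested.

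Assembly gaps touched few long TADs. A run of N of at least 1 kb lay in 8 of 257 long TADs (3.11%), in 20 of 1546 shorter ones (1.29%) and in 1.78% of all TADs. The 13 gaps in long TADs took up 673 kb, or 0.0944% of their length, and none lay in a TAD of 3 Mb or more. Gaps took up 0.191% of the length of TADs of 400 to 840 kb and 0.222% of that of all TADs. The higher count per long TAD thus did not mean a larger share of gap sequence. Most of that length was in chr14:41440001-43300000, with 3 gaps at 41502823-41702822, 42689977-42825476 and across its end, and in chr2:175140001-176720000, with 4 gaps of 50.0 kb. The other gaps were of 50.0 kb in 2 TADs and of 2.00 to 5.00 kb in 4. Without TADs that held a gap, long TADs averaged -3.19 and -3.04 and the difference from shorter TADs was -4.48.

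Every one of the 123133 bins carried an index in both pools, bins of N included. The 3272 bins with 50% N or more had a median of 0.0333 in pool 1 and 0.0316 in pool 2, and 36 of them lay in long TADs. Of the 3200 bins wholly of N, 99.7% lay within 0.4 of 0 and differed from a neighbour by less than 0.005 in both pools. The same flat values occurred in 856 bins with sequence (0.714% of such bins), and 252 of these lay in long TADs (0.707% of their bins) and 119 in TADs of 400 to 840 kb (0.272%). They were concentrated: 243 of the 257 long TADs had none, and in 6 they took 20% or more of the bins. The highest shares were 74.7% in chr2:175140001-176720000, a cluster of zinc finger genes, 54.9% in chr14:16720001-18540000, 43.8% in chr14:18560001-20160000 and 32.3% in chr14:41440001-43300000, whose genes are mostly predicted ones. The likeness of their genes was not measured, and the index of these TADs is uncertain. Leaving out bins of N and flat bins moved chr14:41440001-43300000 from -1.59 and -1.45 to -3.27 and -2.99. It moved chr4:41960001-44320000, with copies of Ccl21 and Il11ra chemokine and receptor genes, from 4.82 and 4.12 to 7.01 and 6.0. Over all long TADs the difference from shorter ones was then -4.37, and 225 of 257 were again below 0 in both pools. Gm7233, among the lowest genes above, starts in the TAD with 3 gaps.

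TADs of at least 1.5 Mb numbered 149 of 4387 in the greater omentum of sheep, 171 of 4166 in the mesenteric fat and 169 of 4187 in the retroperitoneal fat. These are other genomes and depots, and no comparison with the 257 of 2979 in mouse was made.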

How the data were processed

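TADs and A-B indices of mouse iWAT were analysed from 2 Hi-C libraries, each a pool of mice. The authors aligned reads to GRCm39, filtered pairs in Juicer, normalized contact maps with the KR method, merged the pools and called TADs from insulation scores. They deposited TAD positions and, per pool and 20-kb bin of the 19 autosomes, the A-B index, a signed score. By their methods it is the median observed/expected contact with A regions minus that with B regions of the chromosome, where the sign of A was set by gene density. The deposited values are wider than such a difference of ratios near 1 would be, so they may have been rescaled, and their size is read only as relative. The authors also quantile normalized 100-kb maps to compare replicates and thinned merged maps to like coverage to compare species, and whether either step bears on the index of each pool is not given in the sources used here. Contacts per bin, and so the depth behind a value, are not known from these files and no interval of an index was computed. The deposited chromosome lengths matched the GRCm39 sequence at all 123133 bins.

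TADs of at least 1.5 Mb were taken as long. A TAD had the mean index of its bins. Protein-coding genes of GENCODE M39 were placed by their start and given the index of that bin. Deserts were stretches of at least 500 kb between neighbouring protein-coding genes and gaps were runs of N of at least 1 kb. Promoter windows were 250 bases before the canonical transcript. No test was run, since an exact test over 2 pools could not pass a threshold. The members, the 12 gene lists and the comparisons were chosen with earlier results of these data known. Genes named were, in each of the 10 longest TADs, all genes where 4 or fewer started and otherwise the 2 highest and 2 lowest by index, then the 5 highest and 5 lowest of all long TADs, and up to 4 per list from the longest TADs. Sole genes, genes of tandem clusters, genes of stretches in A and genes over 1 Mb were named after their values were seen. The calculations were tested on simulated data. Python 3.11.15, NumPy 2.4.6, pandas 2.3.3, SciPy 1.17.1 and matplotlib 3.10.9 were used. Of the deposited sheep data only the numbers of TADs were used, and the sheep indices and expression were not analysed here. Alternatives covered the summary of bins, ends and gaps of TADs, the length limits, desert and gap sizes, the scale of the index and each pool alone, and those without flat bins, with flat TADs counted as gaps and for B TADs alone were added after seeing the data.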

Additional observations from a re-analysis of the deposited data

How the results depend on the processing

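Of 37 alternative values, 24 stayed within the pool SD or the 95% interval of the main value. Only the differences in index and in GC content could change direction, and 0 did. The index difference of each pool alone had to lie within the pool SD, and no bin lacked an index, so those values could not move. The intervals treat the TADs, bins or genes of 1 merged map as independent, so they give no spread between mice. The difference in index between long TADs and TADs of 400 to 840 kb was -4.60 and -4.15 in each pool alone. It was -3.38 with long TADs of at least 1.2 Mb, -5.21 with at least 2 Mb, -1.24 in units of the chromosome's SD, which is another scale, and -4.82 over bins, which gives longer TADs more weight. The percent of long TADs in B in both pools was 76.9 for at least 1.2 Mb and 96.2 for at least 2 Mb, and 87.9 to 89.1 with a single pool. The length limits change which TADs count as long, and no other cause of these shifts was tested. Genes per Mb of long TADs were 4.60 for at least 1.2 Mb, 2.53 for at least 2 Mb, 2.47 without olfactory and vomeronasal receptors and 2.49 for TADs in B alone. Deserts of at least 1 Mb covered 50.9% of long TADs, and deserts between protein-coding and lncRNA genes 16.9%. Runs of N of at least 20 kb lay in 1.56% of long TADs. No paired analysis was possible because the 2 mouse pools form a single group with no other group to pair them with, and the sheep libraries that share replicate numbers were not compared. The difference between TAD classes was itself taken within each pool. TADs came from 1 merged map, so the spread of their number and length between mice is not known, and the depth of single bins is not known either.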
